A study of Mus musculus with 16 samples.

Results

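Gene expression was compared between the bladders of AGED female mice and MAT female mice, whose arrays carry the titles oldf-1 to oldf-4 and youngf-1 to youngf-4. The members were chosen by these titles, which gave 8 of the 16 arrays of the series, 4 of each age group. All mice were C57BL/6. AGED females were 27 to 30 months old and MAT females, the mature group, were 12 months old. RNA came from the dissected bladder body, with 1 bladder on each 1-colour Agilent SurePrint G3 array and no pooling stated. The study asked how the bladder of each sex alters with age, and its other 8 arrays hold AGED and MAT males of the same ages. The comparison asks which transcripts differ between old and mature females, across all genes that the arrays could measure.

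The scanner software gave each spot an intensity after background subtraction. For the values given here, the log2 intensity of a probe was set against the 75th percentile of all probes on the same array, so that 0 is the level of a probe brighter than 75% of the probes, and a step of 1 is a doubling. A probe was kept where the software marked it as well above background on 4 or more of the 8 female arrays, and 25923 genes were tested, 15623 of them with a gene symbol. Well above background were 61.6%, 59.9%, 63.2% and 62.2% of the probes on AGED arrays 1 to 4, and 67.1%, 68.3%, 64.9% and 64.6% on the MAT arrays. The AGED shares all lay below the MAT shares. Before scaling, the 75th percentile was 10.19, 10.19, 10.82 and 9.83 on the log2 scale for the AGED arrays and between 10.20 and 10.23 for the MAT arrays. AGED array 3 was thus the brightest of the 8 arrays and AGED array 4 the dimmest, and the part of brightness in the results below was not tested.

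The labels were checked against genes that mark the sex and the tissue. Xist, which is transcribed from the inactive X chromosome, lay at 2.19, 2.03, 2.13 and 2.02 on the AGED arrays and at 2.14, 2.13, 2.10 and 2.22 on the MAT arrays. The Y-linked gene Ddx3y was well above background on 0 of the 8 female arrays and on all 8 male arrays. Uroplakin Upk1a, a protein of the urothelial surface, lay between 7.27 and 7.89 in both groups, and the smooth muscle protein Cnn1 between 7.49 and 8.51. Both are markers of bladder layers, and both were far above the 75th percentile on each female array. Gapdh, a common reference gene, lay at 7.12, 7.53, 6.84 and 7.35 on the AGED arrays and at 7.33, 7.35, 7.14 and 7.32 on the MAT arrays, which overlapped.

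A gene was called where limma, a linear model with moderated spread, gave a Benjamini-Hochberg adjusted p under 0.05 over all genes tested and the change was at least 2-fold. A change is the mean log2 signal of the AGED arrays minus that of the MAT arrays. Its direction follows the labels deposited with the arrays and is the reverse of the direction in the study's own list of genes. By this rule 50 genes were called higher in AGED females, which is 0.193% of the genes tested, and 3 were called lower, which is 0.0116%. Of the 50 genes, 30 had a symbol, and 44 were well above background on all 8 female arrays. For all 53 called genes no AGED value fell within the range of the MAT values. Among all genes tested, the arrays did not overlap for 1327 higher genes (5.12%) and 1517 lower genes (5.85%). At an unadjusted p under 0.05 with a 2-fold change, 296 genes (1.14%) were higher and 150 (0.579%) lower. The median change of all genes was −0.004, with 12793 changes above 0 and 13130 below 0.

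The number of calls depended on single arrays. Without AGED array 1, 2, 3 or 4 the higher genes numbered 23, 5, 48 and 7, and without MAT array 1, 2, 3 or 4 they numbered 5, 12, 23 and 2. Leaving out AGED male array 1, 2, 3 or 4, whose spread enters the same model, gave 107, 38, 68 and 46 higher genes, and leaving out MAT male array 1, 2, 3 or 4 gave 31, 54, 33 and 39. The lower genes numbered between 0 and 14 in these fits, with 14 when AGED male array 1 was left out. Every one of the 50 higher genes had a change above 0 whichever array was left out. This had to follow, since their AGED values all lay above their MAT values, so it is no support for the calls. On both slides of the series the MAT arrays took row 1 and the AGED arrays row 2, so that age and row cannot be told apart. An adjusted p weighs a change against the spread between arrays, which the model estimates over all 4 groups, males included. Fewer cells of a type and less RNA per cell cannot be told apart in whole bladder RNA.

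The interferon pathway supplied the largest group of called genes with a known role. Interferons bind receptors that act through Janus kinases on STAT factors, among them Stat2, which join Irf9 and bind an element in the promoters of interferon-stimulated genes. Those genes encode sensors of foreign nucleic acid, further transcription factors and effectors that block the replication of viruses, and in the urinary tract the pathway is best known as part of the defence against infection. The genes of the pathway were grouped by role into lists of ligands and receptors, sensors, transducers and effectors, whose members are described in that order. These lists, and every other list below, were chosen with earlier results of these data known. A count in a list beside the share of all genes is thus a description and no test of the list.

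Of the interferon ligands and receptors, 10 of 12 on the array were tested, 0 were called, and 5 changes lay above 0. Their median change was −0.005, beside −0.004 for all genes, and lay between −0.02 without MAT array 4 and 0.08 without AGED array 1. The type I ligands Ifnb1 and Ifna4 were not well above background on any female array. Ifngr1, a receptor chain for type II interferon and the brightest member, lay at 3.26, 3.37, 2.97 and 3.37 on the AGED arrays and at 3.07, 3.0, 3.20 and 3.17 on the MAT arrays. The type I receptor chain Ifnar2 lay between 2.85 and 3.09 on all 8 arrays, and the type II receptor chain Ifngr2 had a change of 0.17. For Ifngr1 and Ifnar2 the groups overlapped.

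Among 13 sensors of nucleic acid and their adaptors, 11 changes lay above 0, 2 genes were called higher, beside 0.193% of all genes, and the median change was 0.73. Dhx58, a helicase that binds double-stranded RNA, lay at −0.58, −0.42, −0.27 and −0.17 on the AGED arrays and at −2.16, −2.28, −1.94 and −2.29 on the MAT arrays. Every AGED array was more than a doubling above the brightest MAT array, and the change was 1.81 (SE 0.31, adjusted p = 0.0281). The DNA sensor Ifi204 lay at 3.51, 3.65, 3.12 and 4.03 on the AGED arrays and at 2.18, 2.10, 2.66 and 1.97 on the MAT arrays. The groups came closest between AGED array 3 and MAT array 3, and Ifi204 rose by 1.35 (SE 0.25, adjusted p = 0.0363). Ifih1, a helicase that senses long double-stranded RNA, passed the p limit but not the fold limit, with a change of 0.84 (SE 0.15, adjusted p = 0.0353). Zbp1, a sensor of nucleic acid in the Z form, had a change of 2.25 that did not pass (SE 0.45, adjusted p = 0.0566). The adaptor Mavs had a change of −0.28, with the AGED arrays all below the MAT arrays, and was not called (adjusted p = 0.461). When each of the 8 female arrays was left out in turn, Dhx58 was called 0 times and Ifi204 1 time.

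Among 12 signal transducers, 9 changes lay above 0, 3 were called higher, beside 0.193% of all genes, and the median was 0.31, or 0.15 without MAT array 2. Irf7, the transcription factor that amplifies the expression of type I interferon, lay at 0.28, 0.27, 0.11 and 0.77 on the AGED arrays and at −2.75, −2.53, −1.89 and −3.10 on the MAT arrays. Its AGED values lay within 0.66 of each other while MAT array 3 stood above the other MAT arrays, and its rise of 2.93 was the largest of the pathway (SE 0.55, adjusted p = 0.0392). Irf9, the subunit through which the complex with Stat2 binds DNA, lay at 3.62, 3.70, 3.81 and 3.86 on the AGED arrays and at 2.35, 2.37, 2.77 and 2.12 on the MAT arrays. The AGED arrays of Irf9 were tightly grouped and far above MAT array 3, the brightest MAT array, with a change of 1.35 (SE 0.20, adjusted p = 0.0178). Usp18, which removes Isg15 from proteins and limits signalling at the type I receptor, lay at 2.37, 2.93, 2.91 and 2.52 on the AGED arrays and at 1.22, 1.78, 1.72 and 1.5 on the MAT arrays. No arrays overlapped, and Usp18 rose by 1.13 (SE 0.17, adjusted p = 0.0218). Stat2 passed the p limit with a change of 0.97, just under 2-fold (SE 0.14, adjusted p = 0.0178). Irf3, the brightest member, had a change of −0.35, the kinase Jak1 had −0.16 and Irf1 had a change of 0.17, all with overlapping groups.

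The calls of these transducers were also sensitive to single arrays. With 1 of the 8 female arrays left out in turn, Usp18 was called 4 times, Irf9 3 times and Irf7 0 times. Over all 16 arrays left out in turn the adjusted p reached 0.0999 for Usp18, 0.0996 for Irf9 and 0.165 for Irf7, while the change stayed between 2.59 and 3.15 for Irf7 in every fit and setting tried.

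Of 42 effector genes, 37 could be matched by symbol to the array and 35 were tested. Members whose probes carry an accession that the reference does not name are missing from these counts. Changes lay above 0 for 32 of the 35, and the median was 1.17. The groups did not overlap for 30, all higher, beside 5.12% of all genes tested, and 8 were called higher, beside 0.193%. Ifit1, which binds viral RNA that lacks a host cap, lay at 0.91, 0.65, 0.49 and 1.05 on the AGED arrays and at −1.79, −2.06, −0.71 and −1.99 on the MAT arrays. MAT array 3 stood more than a doubling above the other MAT arrays and still below every AGED array, and Ifit1 rose by 2.41 (SE 0.37, adjusted p = 0.0219). Ifit3, which binds Ifit1, lay at 3.17, 3.14, 2.89 and 3.28 on the AGED arrays and at 0.98, 0.62, 1.91 and 1.10 on the MAT arrays. The same MAT array was the highest, and the rise was 1.97 (SE 0.33, adjusted p = 0.0247). Eif2ak2, the kinase that halts translation when it binds double-stranded RNA, lay at 0.98, 1.17, 0.80 and 1.19 on the AGED arrays and at −0.08, −0.02, 0.06 and −0.15 on the MAT arrays. Its arrays were evenly grouped in both ages, and it rose by 1.08 (SE 0.16, adjusted p = 0.0178). Ifit1 and Eif2ak2 were called in 3 and Ifit3 in 2 of the 8 fits that each left out 1 female array.

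The 2 called members of the oligoadenylate synthetase family were the like proteins Oasl1 and Oasl2. Oasl1, which restrains the translation of Irf7, lay at 2.26, 2.36, 1.94 and 2.92 on the AGED arrays and at −0.63, −0.28, 0.58 and −0.51 on the MAT arrays. The rise of Oasl1 was 2.58 (SE 0.46, adjusted p = 0.0353), and that of Oasl2 was 1.93 (SE 0.34, adjusted p = 0.0294). Their relatives Oas1a, Oas2 and Oas3, chosen after their values were seen, had changes of 2.52, 2.40 and 2.89 with groups that did not overlap, and adjusted p of 0.171, 0.098 and 0.138. The other called effectors were Rtp4, a chaperone of receptors that interferon induces (2.28), Xaf1, which promotes apoptosis (1.77), and Phf11d, a protein with a zinc finger (1.17). Over the 8 fits that each lacked 1 female array, Oasl1, Rtp4 and Xaf1 were called 2 times each, and Oasl2 and Phf11d 1 time each.

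Ifi35 had the smallest p of the interferon lists and missed the fold limit alone. It lay at 2.42, 2.65, 2.24 and 2.68 on the AGED arrays and at 1.51, 1.67, 1.63 and 1.41 on the MAT arrays, a change of 0.94 (SE 0.13, adjusted p = 0.0106). Samd9l (0.83) and the membrane protein Ifitm3 (0.73) likewise passed the p limit under 2-fold. Bst2, which tethers budding viruses, had a change of 1.36 and an adjusted p of 0.0528, and Ifit3b a change of 1.89 and an adjusted p of 0.0595. The brightest effector, Ifi27l2a, lay at 6.90, 6.89, 6.21 and 7.07 on the AGED arrays and at 5.66, 5.16, 5.28 and 4.81 on the MAT arrays, and its change of 1.54 was not called (adjusted p = 0.0626). Not every member was higher: Ifitm1 and Ifitm2, chosen after their values were seen, had changes of −0.06 and −0.05.

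**Figure D1:**
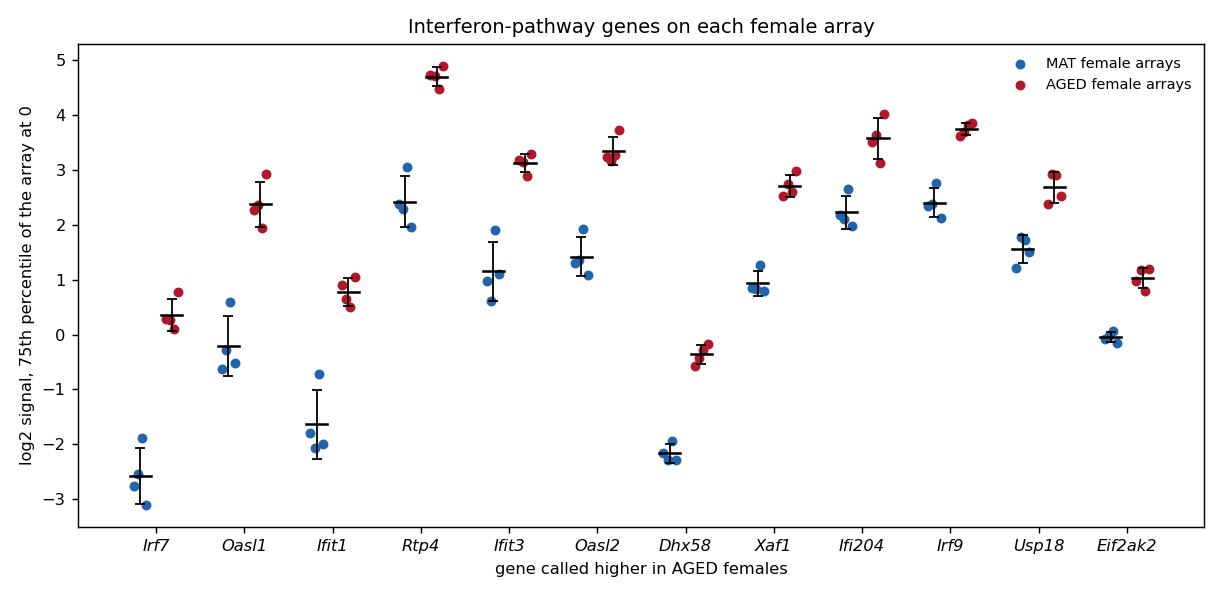
Scaled log2 signal of 12 of the 13 called genes that were matched by symbol to the interferon lists (all but Phf11d) on each of the 4 MAT and 4 AGED female arrays, with 0 at the 75th percentile of an array; each point is 1 array, and bars show the mean and 1 SD. The groups do not overlap for any of the 12 genes, and MAT array 3 is the highest MAT array for all but Usp18.

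Single arrays stood at the edge of the effector list in both groups. Summed over the 35 genes on the linear scale, where 1 is the 75th percentile of an array, the level was 410, 463, 387 and 523 on the AGED arrays and 228, 209, 235 and 191 on the MAT arrays. AGED array 4 held the highest AGED value for 28 of the 35 genes, and MAT array 3 the highest MAT value for 27. With any 1 female array left out the median change of the list stayed between 1.10 and 1.28, while no effector was called without AGED array 2 or 4 or MAT array 1, 2 or 4. In males the same 35 genes had a median change of −0.19, with 10 changes above 0.

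Families that interferon induces in mouse cells but that stand outside these lists were read beside them. All 16 interferon-induced GTPases had changes above 0 (median 0.70), beside 12793 of all 25923 genes, yet 0 were called by limma. An unadjusted p under 0.05 with 2-fold was passed by 2, beside 1.14% of all genes, and 7 did not overlap, beside 5.12%. Their brightest member, Gbp2, lay at 3.61, 3.73, 3.89 and 4.11 on the AGED arrays and at 3.98, 3.94, 3.98 and 3.0 on the MAT arrays, so that the groups overlapped. AGED array 4 held the highest AGED value for 15 of the 16 GTPases, and without it the median was 0.49. The 7 Schlafen genes tested all had changes above 0 (median 1.4), and Slfn4 was called, beside 0.193% of all genes. An unadjusted p under 0.05 with 2-fold was passed by 4 of them, beside 1.14%, and 5 did not overlap, beside 5.12%. These counts include Slfn4, which was kept mainly through the AGED arrays, so that its call is no evidence about the family. Slfn4 lay at −3.64, −4.14, −3.97 and −2.41 on the AGED arrays and at −6.09, −5.94, −6.93 and −5.82 on the MAT arrays, where it was well above background on 1 array alone, so that its change of 2.66 rests on a dim group (SE 0.48, adjusted p = 0.0363). Slfn2 had a change of 1.63 and was not called (adjusted p = 0.0906), and without AGED array 4 the median of the family was 1.19. Slfn4 was called in 1 of the 8 fits that lacked a female array. With normexp, a background correction of the unprocessed spot signals with an added offset of 50, its change was 0.96, uncalled, and the median of the family 0.71. What part each of these choices had in the lower values was not tested.

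For MHC class I presentation, the display of peptides from inside the cell, 16 of 17 changes lay above 0 with a median of 0.44, and the groups did not overlap for 9, beside 5.12% of all genes that were higher without overlap. No member was called, and 0 passed an unadjusted p under 0.05 with 2-fold. The brightest member, H2-K1, lay at 6.90, 7.08, 6.63 and 7.14 on the AGED arrays and at 6.50, 6.59, 6.62 and 6.60 on the MAT arrays, a narrow separation. H2-T24, a nonclassical class I gene that was not on the list, was called with a change of 1.09 (SE 0.20, adjusted p = 0.0363), and in 0 of the 8 fits that lacked a female array.

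Other called genes with a symbol were Apol9a (1.96) and Apol9b (1.91), which are near-identical apolipoprotein L genes, Ifi27l2b (1.73), Phf11a (1.21) and Ly6a (1.04), which encodes a surface protein also used as a stem cell marker. Apol9a lay at 2.42, 2.90, 2.91 and 2.70 on the AGED arrays and at 0.69, 0.67, 1.15 and 0.56 on the MAT arrays. Ly6a was among the brightest called genes, at 5.54, 5.59, 5.34 and 5.94 on the AGED arrays and at 4.56, 4.71, 4.81 and 4.17 on the MAT arrays. For both genes each AGED array lay above each MAT array. With a female array left out, Apol9a and Phf11a were called in 3 of 8 fits, Ly6a in 2 and Apol9b and Ifi27l2b in 0. Several called genes lie near each other on the reference annotation GRCm38.p6: Phf11a and Phf11d on chromosome 14 with 1 gene between them, Oasl1 and Oasl2 on chromosome 5 with 1 gene between, and Ifit1 and Ifit3 on chromosome 19 with 4 between. Probes of such related genes may detect each other's transcripts, which was not tested.

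The promoters of the called genes were searched for the element that the Irf9 complex binds, GAAANNGAAA, and for the sequence TTCNNNGAA that STAT dimers bind, on both strands. The windows were those of RefSeq on GRCm38.p6, from 250 bases before to 50 after a transcript's start, and 28 of the 35 effectors and 20 of the 53 called genes had at least 1. GAAANNGAAA was found in 15 of 32 effector windows (46.9%), in 8 of 23 windows of called genes (34.8%) and in 3.1% of the 15599 windows of all genes tested. Apart from the interferon lists, 5 of 13 windows of called genes held it (38.5%), those of Apol9a, Apol9b and Phf11a. Counted by gene, these were 3 of the 11 such genes with a window (27.3%), beside 3.73% of all genes. Apol9a and Apol9b are near-identical and thus not separate cases. TTCNNNGAA was found in 21.9% of the effector windows, 8.7% of the called windows and 7.13% of all windows. A match is a run of letters and not a binding site. The windows of Ifi35, Stat2, Irf9 and Eif2ak2, the 4 members of the interferon lists with the smallest p, are printed from 5′ to 3′ on the strand of the gene, with GAAANNGAAA or its reverse complement in capitals, because they show how far genes that changed alike differ in these letters. Ifi35 lies at chr11:101448162-101448461 (plus strand), Stat2 at chr10:128270248-128270547 (plus), the 2 windows of Irf9 at chr14:55603735-55604034 and chr14:55604329-55604628 (plus) and Eif2ak2 at chr17:78882523-78882822 (minus). The windows of Stat2 and Eif2ak2 each hold 1 match, and those of Ifi35 and Irf9 hold none.
Ifi35: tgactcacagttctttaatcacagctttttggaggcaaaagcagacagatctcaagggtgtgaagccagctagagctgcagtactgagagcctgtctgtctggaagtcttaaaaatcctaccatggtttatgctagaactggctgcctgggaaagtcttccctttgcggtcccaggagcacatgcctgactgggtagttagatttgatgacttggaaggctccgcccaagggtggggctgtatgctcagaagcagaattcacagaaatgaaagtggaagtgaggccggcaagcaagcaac
Stat2: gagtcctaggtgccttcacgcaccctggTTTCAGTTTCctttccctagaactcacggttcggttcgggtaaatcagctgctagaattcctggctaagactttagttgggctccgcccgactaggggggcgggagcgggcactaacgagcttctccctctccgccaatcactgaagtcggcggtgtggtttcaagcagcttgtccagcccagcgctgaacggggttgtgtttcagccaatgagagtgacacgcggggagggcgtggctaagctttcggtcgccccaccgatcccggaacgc
Irf9, upstream window: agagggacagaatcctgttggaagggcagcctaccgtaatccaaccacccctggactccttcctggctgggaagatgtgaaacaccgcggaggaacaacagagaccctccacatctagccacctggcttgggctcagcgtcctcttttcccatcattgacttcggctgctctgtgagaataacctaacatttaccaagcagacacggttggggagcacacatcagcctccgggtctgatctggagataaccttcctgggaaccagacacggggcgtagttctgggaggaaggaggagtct
Irf9, downstream window: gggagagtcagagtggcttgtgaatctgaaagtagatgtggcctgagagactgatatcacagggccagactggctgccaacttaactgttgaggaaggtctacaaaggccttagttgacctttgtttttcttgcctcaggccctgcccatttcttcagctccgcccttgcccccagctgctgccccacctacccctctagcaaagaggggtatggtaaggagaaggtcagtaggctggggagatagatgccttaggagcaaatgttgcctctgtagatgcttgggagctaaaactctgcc
Eif2ak2: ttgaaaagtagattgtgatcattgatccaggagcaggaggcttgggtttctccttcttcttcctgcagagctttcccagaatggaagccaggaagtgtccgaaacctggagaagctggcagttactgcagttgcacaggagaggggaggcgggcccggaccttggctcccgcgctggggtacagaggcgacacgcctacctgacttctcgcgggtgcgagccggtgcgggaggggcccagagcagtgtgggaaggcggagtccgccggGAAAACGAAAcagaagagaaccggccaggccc

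On chromosome 1 a cluster of called features carried no gene symbol. The array holds probes for transcribed intervals that it names by their coordinates on the build mm9, and 13 such features between 84947500 and 85337483 were tested. Of these, 5 were called higher, beside 0.193% of all genes, but the stretch is described because of its called features, so that this is no test. Intervals overlap and 1 called feature lies inside another, so that the count is one of features and not of transcripts. The feature chr1:85304494-85305390 on the reverse strand lay at −0.21, −0.37, −0.24 and 0.78 on the AGED arrays and at −2.02, −1.79, −2.40 and −2.71 on the MAT arrays. AGED array 4 stood apart as the highest, the change was 2.22 (SE 0.27, adjusted p = 0.00743), and 2 further probes of the same feature gave 1.95 and 2.11. It was called whichever of the 16 arrays was left out. The other 4 called features of the stretch, chosen after their values were seen, had changes of 1.55, 1.89, 2.12 and 2.13, and the 8 uncalled ones ranged from −0.24 to 2.02. In males 8 of the 13 changes lay above 0 and 5 below, and of the 5 features called in females 3 passed an adjusted p under 0.05, among them chr1:85304494-85305390 with a change of 1.59 (adjusted p = 0.00773). The transcript C79246, chosen after its values were seen because it had the smallest adjusted p of all genes, had a change of 1.78 in females (SE 0.19, adjusted p = 0.00312) and of 1.59 in males.

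The features without a symbol with the largest changes included the probe A_55_P2172364 and the transcripts BC048373 and AK019325. A_55_P2172364 was well above background on all 4 AGED arrays and 0 MAT arrays, so that its call rests on MAT values under the measurable level. With each MAT array raised to its lowest signal of any probe well above background, A_55_P2172364 was 4.90-fold higher. That is no lower bound, and with normexp its change was 0.92, uncalled. BC048373 lay at 1.95, 2.23, 2.46 and 2.92 on the AGED arrays and at 0.34, 0.49, 0.34 and −0.39 on the MAT arrays, a rise of 2.19 (SE 0.40, adjusted p = 0.0363). AK019325 lay at 0.53, 0.65, 0.18 and 1.11 on the AGED arrays and at −1.67, −1.76, −0.95 and −1.79 on the MAT arrays, a rise of 2.16 (SE 0.36, adjusted p = 0.0255). Neither overlapped between ages. The predicted gene Gm7609 rose by 2.12 (SE 0.41, adjusted p = 0.0483). Of the 8 fits without 1 female array, 2 called AK019325, and 0 called BC048373 or Gm7609.

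The PRAME-like family, whose members are best known from germ cells and early embryos, had 5 genes tested and 2 called higher, beside 0.193% of all genes. Its called members Pramel24 and Pramel4 were kept wholly or mainly through the AGED arrays, so that this count is no evidence about the family. Another 10 of the 15 genes on the array were too dim to test, so nothing can be said about them. Pramel24 lay at −4.26, −4.69, −5.30 and −5.20 on the AGED arrays and at −8.43, −7.88, −7.77 and −8.09 on the MAT arrays. No MAT array had Pramel24 well above background, so that its call rests on MAT values under the measurable level. With each MAT array raised to its lowest signal of any probe well above background, Pramel24 was 2.58-fold higher in AGED females. That is no lower bound, and with normexp its change was 0.69, uncalled. Pramel4 lay at −3.52, −3.45, −3.92 and −4.16 on the AGED arrays and at −7.82, −5.51, −6.2 and −7.16 on the MAT arrays, with 1 MAT array well above background. The change of 2.91 for Pramel4 thus rests on dim MAT values, and it was 2.29 with low signals raised to the lowest measurable level and 0.95, uncalled, with normexp. Both are far below the 75th percentile even in AGED females. Pramel4 was called in 1 of the 8 fits that lacked a female array. The brightest member, Pramel12, had a change of 0.02.

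Further called genes were Chil3, Vsig4, Msr1 and Mmp3, each from a different list. Chil3, a chitinase-like protein that alternatively activated macrophages secrete, lay at 0.45, 1.23, 0.52 and 2.26 on the AGED arrays and at −1.57, −1.18, −1.4 and −1.52 on the MAT arrays. The MAT arrays were tightly grouped and AGED array 4 was the highest, and Chil3 rose by 2.53 (SE 0.37, adjusted p = 0.0178). Vsig4, a complement receptor of resident macrophages, lay at −0.02, −0.22, 0.08 and 0.61 on the AGED arrays and at −1.73, −1.38, −2.89 and −2.53 on the MAT arrays. Here the AGED arrays were the closer group, and the rise was 2.24 (SE 0.36, adjusted p = 0.0227). Msr1, a scavenger receptor, lay at −2.06, −1.71, −2.25 and −1.45 on the AGED arrays and at −2.87, −2.72, −2.86 and −3.17 on the MAT arrays, and rose by 1.04 (SE 0.19, adjusted p = 0.0363). The matrix protease Mmp3 lay at 1.10, 1.34, 1.09 and 1.17 on the AGED arrays and at −0.62, −0.73, −0.91 and −0.64 on the MAT arrays. Within each age Mmp3 varied by less than 0.3, the ages were far apart, and the rise was 1.90 (SE 0.30, adjusted p = 0.0227). Without 1 of the 8 female arrays, Chil3 was called in 5 fits, Vsig4 in 3, and Msr1 and Mmp3 in 1 each.

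The lists that hold these genes, which were picked by their calls, are given by their medians. Of 20 macrophage genes 16 had changes above 0, beside 12793 of all 25923 genes, with a median of 0.33. Msr1 was the 1 called member, beside 0.193% of all genes called higher. AGED array 4 held the highest AGED value for 16 of the 20, and without it the median was 0.18. The receptor Csf1r, the brightest of them, lay at 5.06, 5.55, 5.67 and 5.79 on the AGED arrays and at 5.54, 5.51, 5.71 and 5.67 on the MAT arrays, which overlapped, and the summed level of the list was 100, 120, 125 and 165 on the AGED arrays and 123, 121, 137 and 129 on the MAT arrays. The probes of the integrin Itgam did not give 1 direction: the tested probe had a change of −0.49 and the 2 others had 0.51 and 0.63. Of 20 complement genes 16 had changes above 0, and the median was 0.41, or 0.27 without AGED array 4. Vsig4 was the 1 called member, beside 0.193% of all genes. C3, the brightest, had a change of 0.65 with overlapping groups and C4b a change of 0.95 (adjusted p = 0.0665). The 9 tested genes of alternative activation had a median of 0.15 with Chil3 alone called, beside 0.193% of all genes. The median was 0.02 without AGED array 2, 0.07 without AGED array 1 or MAT array 2 and 0.32 without MAT array 3. Of these genes the brightest, Retnla, ranged from 3.97 to 5.79 in AGED and from 3.30 to 5.56 in MAT females. Of 17 genes of the matrix metalloproteinase list 14 had changes above 0, and the median was 0.21, or 0.12 without MAT array 1. Mmp3 was the 1 called, beside 0.193% of all genes, while the inhibitor Timp2 had a change of 0.01.

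Sntg1, a syntrophin that anchors membrane proteins, rose by 1.14 (SE 0.20, adjusted p = 0.0363), and a further probe of the gene had a change of 0.91 (exact permutation p = 0.0571). Of the 8 further kept probes that were read for named called genes, this one alone had a change under 2-fold, and 0 opposed the tested probe. Sntg1 was called in 0 of the 8 fits that lacked a female array.

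In AGED females 3 features were called lower. P2rx2, an ATP-gated channel of bladder sensory nerves, lay at −2.33, −2.45, −1.59 and −2.39 on the AGED arrays and at −0.54, −0.82, −1.12 and −1.0 on the MAT arrays. AGED array 3 stood above the other AGED arrays and still below every MAT array, and P2rx2 fell by 1.32 (SE 0.24, adjusted p = 0.0363). Dipk1c, of a family of divergent kinases, was well above background on all 4 MAT arrays and 0 AGED arrays, with a change of −1.83. Its AGED values were too dim to measure, so that the call rests on them, and with low signals raised to the lowest measurable level the change was 0.13. The transcript ENSMUST00000099198, chosen after its values were seen, fell by 1.4 and cleared the background on 2 AGED arrays. Just short of these, Icam5 had a change of −0.75 (adjusted p = 0.0281) and Slc25a23 of −0.75 (adjusted p = 0.0464), both under 2-fold. P2rx2 was called in 1 of the 8 fits without a female array.

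The receptors through which transmitters act on the detrusor had mostly small changes. Of 25 muscarinic, purinergic and adrenergic receptors tested 16 had changes below 0. The median was −0.02, between −0.09 without AGED array 4 and 0.01 without MAT array 3. P2rx2 was the 1 called, beside 0.0116% of all genes called lower. The groups did not overlap for 5 lower receptors, beside 5.85% of all genes, and for 1 higher receptor, beside 5.12%. The muscle channel P2rx1, the brightest receptor, lay at 6.04, 5.22, 5.92 and 5.76 on the AGED arrays and at 6.28, 6.15, 5.73 and 6.12 on the MAT arrays, which overlapped, with a change of −0.33 (adjusted p = 0.554). Chrm3, the muscarinic receptor that drives contraction, had a change of 0.37 and Chrm2 of −0.18, and the arrays of both ages overlapped. Chrm1 had a change of −0.90 and cleared the background on 1 AGED array. Among beta-adrenoceptors the changes were −0.00 for Adrb1 and −0.18 for Adrb3, neither of them called. Ion channels of detrusor and sensory nerve had a median of −0.09, or −0.21 without AGED array 1, over 32 genes with 0 called by limma. At an unadjusted p under 0.05 with 2-fold 1 was lower, beside 0.579% of all genes, and 4 were lower without overlap, beside 5.85%.

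The genes that the study lists were not all called in females. AI593442, Tmem200c and D9Ertd115e, which it also lists, were not among the genes named here. Beside Chil3 and Mmp3, Defb50 had a change of 1.80 (adjusted p = 0.183) and S100a9 of 1.62 (adjusted p = 0.319), both with groups that did not overlap. Kcnj5 lay at −5.87, −6.56, −4.70 and −5.06 on the AGED arrays and at −2.99, −4.13, −3.71 and −2.52 on the MAT arrays, a change of −2.21 that was not called (SE 0.54, adjusted p = 0.136). Probes of one gene differed for F10, where the tested probe had 0.15 and another 1.81 (exact permutation p = 0.0857), and for Gsg1l, where the tested probe had −0.23 and another −1.27 (exact permutation p = 0.0286, the smallest that 4 arrays against 4 can give), the latter well above background on 0 AGED arrays. As these genes were chosen by the study on the same arrays, their values are no independent evidence of a direction.

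Cell cycle genes were read as a list, of which no member was called. All 28 proliferation genes tested had changes above 0, beside 12793 of all 25923 genes, and their median was 0.88. The count called by limma was 0, 9 passed an unadjusted p under 0.05 with 2-fold, beside 1.14% of all genes, and 8 had groups that did not overlap, beside 5.12%. Pcna, the clamp of the replication fork and the brightest member, lay at 4.14, 4.41, 4.11 and 4.48 on the AGED arrays and at 3.81, 4.00, 3.94 and 3.87 on the MAT arrays. The separation of Pcna was narrow, and its change was 0.38 (adjusted p = 0.276). Birc5, an inhibitor of apoptosis in dividing cells and chosen after its values were seen, had the largest change of the list at 1.70 (adjusted p = 0.0702). AGED array 4 held the highest AGED value for 27 of the 28 genes and AGED array 1 the lowest for 25. Summed levels were 58.2, 72.7, 69.0 and 108 on the AGED arrays and 45.7, 56.2, 50.6 and 48.0 on the MAT arrays. Without AGED array 4 the median was 0.53.

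Outside this list, the called gene Mcm10 acts in the cell cycle. Mcm10, which loads the replication machinery onto DNA, lay at −0.73, −0.95, −0.85 and −0.11 on the AGED arrays and at −2.5, −1.72, −1.85 and −2.20 on the MAT arrays, and rose by 1.41 (SE 0.24, adjusted p = 0.0281). Mcm10 was called in 1 of the 8 fits that lacked a female array. Sgo1, which protects the cohesion of chromosomes, had a change of 1.08 and was not called (adjusted p = 0.0557). The senescence list had a median of 0.02, between −0.02 without AGED array 1 and 0.08 without MAT array 3, over 14 genes with 0 called, and Cdkn2a, its best known member, lay at −2.05, −1.68, −1.47 and −0.43 on the AGED arrays and at −2.71, −1.89, −1.85 and −2.33 on the MAT arrays. The groups overlapped for Cdkn2a, whose change was 0.79 (adjusted p = 0.377).

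**Figure D2:**
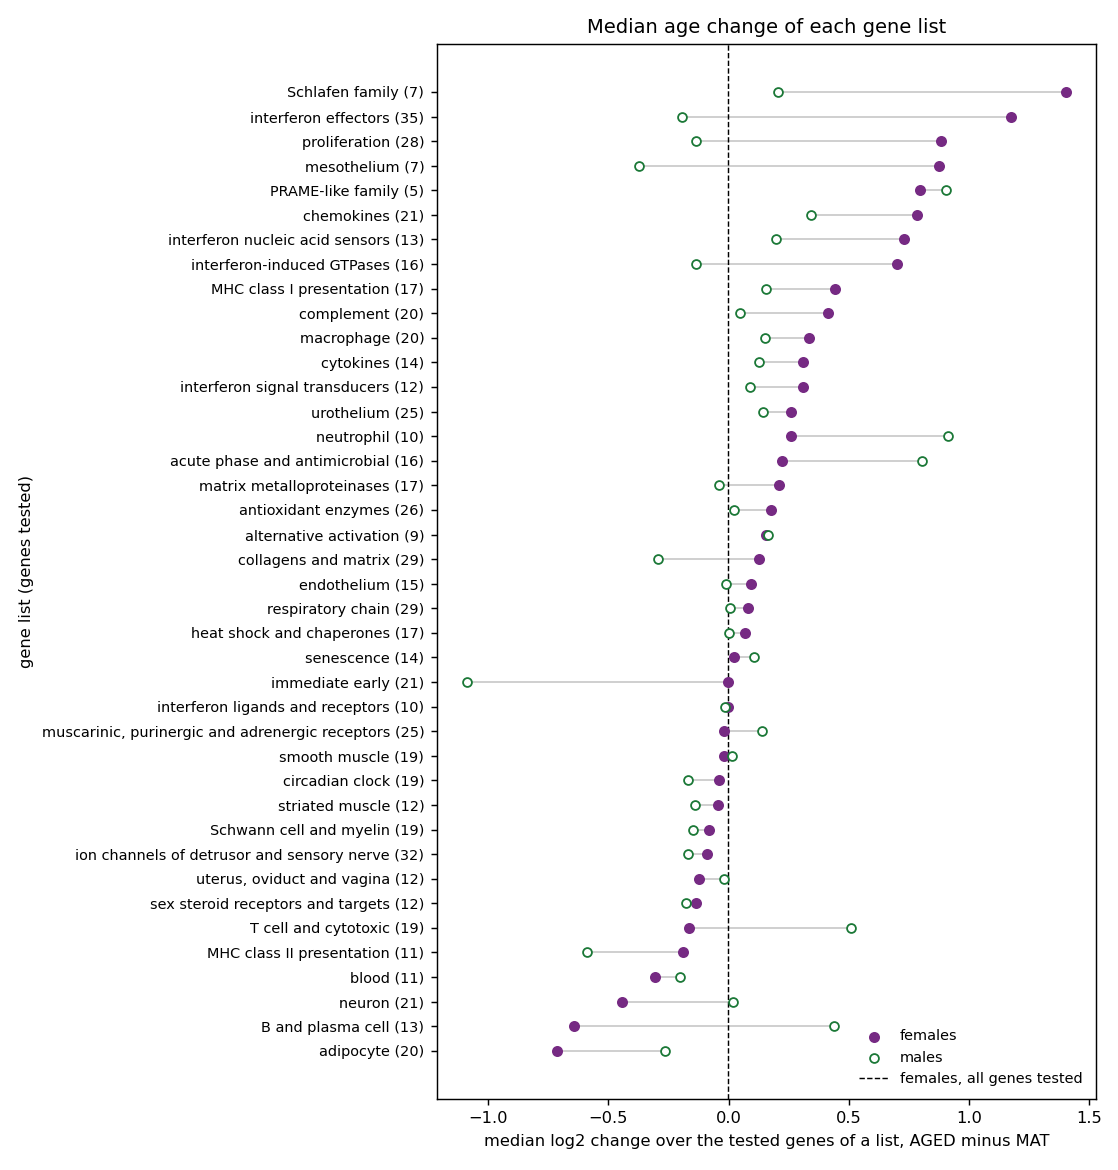
Median log2 change, AGED minus MAT, over the tested genes of each of the 40 gene lists in females (filled) and males (open); the dashed line is the median of all genes tested in females, and the number of genes stands in brackets. In females the Schlafen family (1.4), interferon effectors (1.17) and proliferation (0.88) lie farthest to the right and the adipocyte list (−0.71) farthest to the left. This order depended on single arrays. Without AGED array 4 proliferation (0.53) lay under the sensors of nucleic acid (0.57) and the PRAME-like family (0.62), and without AGED array 1 (1.06) under mesothelium (1.16). Without MAT array 1 B and plasma cell genes (−0.56) lay under the adipocyte list (−0.27). With normexp the Schlafen median was 0.71, under those of the effectors (1.11) and proliferation (0.73), and the mesothelium median was 0.35.

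The lists of lymphocytes and of antigen presentation by class II gave no calls. Of 13 B and plasma cell genes 12 had changes below 0, with a median of −0.64. Jchain, which joins secreted antibodies, lay at 1.88, 4.15, 4.68 and 3.50 on the AGED arrays and at 4.80, 5.26, 3.67 and 4.47 on the MAT arrays. AGED array 1 was lowest of the AGED arrays for 11 of the 13 genes, and the median was −0.17 without it and −0.36 without MAT array 2, and −0.37 with normexp. T cell and cytotoxic genes had a median of −0.16 with 15 of 19 changes below 0, AGED array 1 was the lowest for 16 of them, and the median was 0.13 without it, −0.04 without MAT array 3 and −0.35 without AGED array 2. MHC class II genes had a median of −0.19, AGED array 1 was the lowest for all 11, and the median was 0.04 without it, −0.09 without AGED array 3, −0.33 without AGED array 4 and −0.37 without AGED array 2. H2-Ab1, the brightest class II gene, lay at 5.83, 7.06, 6.22 and 6.92 on the AGED arrays and at 6.61, 6.62, 6.83 and 6.73 on the MAT arrays. The part of differing shares of lymphocytes in any of these values was not tested.

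Chemokines and cytokines varied widely between arrays. Of 21 chemokines 14 had changes above 0 with a median of 0.78 and 0 called by limma. At an unadjusted p under 0.05 with 2-fold 3 were higher, beside 1.14% of all genes. Ccl8, a chemokine of monocytes, lay at 4.49, 5.16, 5.07 and 6.49 on the AGED arrays and at 4.31, 4.73, 5.13 and 3.90 on the MAT arrays. AGED array 4 was the highest for 13 of the 21, and the median was 0.50 without it. Il33, an alarmin of epithelial and stromal cells and the brightest of 14 cytokines, lay at 2.53, 2.39, 1.88 and 2.45 on the AGED arrays and at 1.14, 1.22, 1.22 and 0.98 on the MAT arrays. For Il33 the groups did not overlap, and its change of 1.17 was not called (adjusted p = 0.0859). The cytokine median was 0.31, or 0.07 without AGED array 4. Neutrophil genes, 10 in all, had a median of 0.26, which was 0.12 without MAT array 4 and 0.41 without MAT array 2. None was called, and 4 were higher at an unadjusted p under 0.05 with 2-fold, beside 1.14% of all genes. The groups did not overlap for 4 higher and 1 lower, beside 5.12% and 5.85%. Lcn2, a binder of bacterial iron carriers, had a change of 1.04 (adjusted p = 0.0804). Acute phase and antimicrobial genes had a median of 0.22, which was 0.02 without AGED array 4, 0.12 without MAT array 4 and 0.43 without AGED array 1. They spanned −2.40 to 4.03, the upper end being Saa3, chosen after its values were seen (adjusted p = 0.373).

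Markers of tissues around the bladder were read beside these results. All but 1 of 20 adipocyte genes had changes below 0, with a median of −0.71 and 0 called. MAT array 1 held the highest MAT value for 19 of the 20, the summed level was 507 on that array, 262, 271 and 277 on the other MAT arrays, and 232, 271, 241 and 244 on the AGED arrays. Without MAT array 1 the median was −0.27. Car3, the brightest adipocyte gene, lay at 5.28, 5.69, 6.09 and 5.45 on the AGED arrays and at 6.67, 6.15, 6.2 and 6.08 on the MAT arrays. Mesothelium genes, which mark the outer lining, had 7 of 7 changes above 0 and a median of 0.88 with 0 called, and Msln ranged from −2.22 on AGED array 1 to 2.29 on AGED array 4. The mesothelium median was 0.43 without AGED array 4 and 0.35 with normexp. Neuron genes had 17 of 21 changes below 0 and a median of −0.44, with MAT array 1 the highest for 18 of them, and Snap25, the brightest, lay at 3.42, 3.92, 3.62 and 3.45 on the AGED arrays and at 4.18, 4.07, 4.08 and 4.16 on the MAT arrays. Its change of −0.52 was not called (adjusted p = 0.174). Blood genes had a median of −0.31, which was 0.02 without AGED array 2, −0.06 without MAT array 3, −0.19 without MAT array 2 and −0.56 without AGED array 1 or MAT array 1. Striated muscle genes had a median of −0.04, between −0.13 without AGED array 4 and 0.02 without AGED array 2, and those of uterus, oviduct and vagina −0.12, between −0.19 and −0.04 without the same arrays. What part of the calls such tissue could carry was not tested.

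The lists of the bladder's own layers held no called gene. Urothelium genes had a median of 0.26, with 20 of 25 changes above 0, and the 19 smooth muscle genes a median of −0.02, with 0 called in either. Acta2, the actin of smooth muscle, lay at 8.02, 7.90, 7.32 and 8.15 on the AGED arrays and at 7.98, 7.92, 7.90 and 7.89 on the MAT arrays, and AGED array 3 was the lowest. The medians were 0.13 for collagens and matrix, 0.09 for endothelium and −0.08 for Schwann cell and myelin. Of the 19 Schwann cell and myelin genes 7 were lower without overlap, beside 5.85% of all genes, and 0 were higher without overlap. Lists of cell physiology gave −0.04 for the circadian clock, −0.004 for immediate early genes, 0.07 for heat shock and chaperones, 0.18 for antioxidant enzymes and 0.08 for the respiratory chain. Sex steroid receptors and their targets had a median of −0.13, and the estrogen receptor Esr2 a change of −0.14. With 1 female array left out the collagen median ran from −0.08 (without AGED array 4) to 0.21 (AGED array 3), the circadian median from −0.20 (AGED array 1) to 0.09 (AGED array 4) and the immediate early median from −0.15 (MAT array 1) to 0.15 (MAT array 3). The median was 0.10 for smooth muscle and 0.14 for the respiratory chain without AGED array 3, −0.20 for Schwann cells and −0.00 for endothelium without AGED array 1, 0.01 for heat shock without MAT array 2 and −0.05 for sex steroid genes without MAT array 4. None of these lists held a called gene. At an unadjusted p under 0.05 with 2-fold they held 2 higher and 2 lower genes in all, beside 1.14% and 0.579% of all genes.

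The difference of the age change between females and males was tested in the same model, with the male change subtracted from the female change. Sex and slide cannot be told apart, since all females were on 1 slide and all males on the other. The difference passed an adjusted p under 0.05 for 57 genes, which is 0.220% of those tested, and the female change was the higher for 48 of them. The count was between 6 and 275 when 1 array was left out, with 6 without MAT female array 1 or 4, 7 without AGED female array 2, 8 without AGED female array 1 or MAT female array 2, 9 without MAT male array 2, 10 without AGED female array 4 and 275 without AGED male array 1. It was also 14 without MAT female array 3, 15 without MAT male array 1 or 3 and 114 without AGED male array 2.

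Of the 53 genes called in females, 9 were also called in males in the same direction, and for 9 the difference between the sexes was called. Males had a change below 0 for 18 of the 50 genes that were higher in AGED females. Ifit1 had a change of −0.98 in males, and its difference of 3.39 was called (SE 0.53, adjusted p = 0.0232). Ifit3 had a male change of −0.89 and a difference of 2.87 (adjusted p = 0.0264), and Irf9, Usp18, Oasl2, Xaf1 and Apol9a also had called differences, between 1.32 and 2.53. For Irf7 the male change was 0.11, yet the difference of 2.82 was not called (adjusted p = 0.191). Chil3 rose in both sexes and more in males, where the change was 5.68, and its difference of −3.15 was called (adjusted p = 0.0317). Vsig4 rose by 2.20 in males and Mmp3 by 2.47, and their differences of 0.04 and −0.57 were not called. P2rx2 had a male change of −0.38, and its difference was not called (adjusted p = 0.349).

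**Figure D3:**
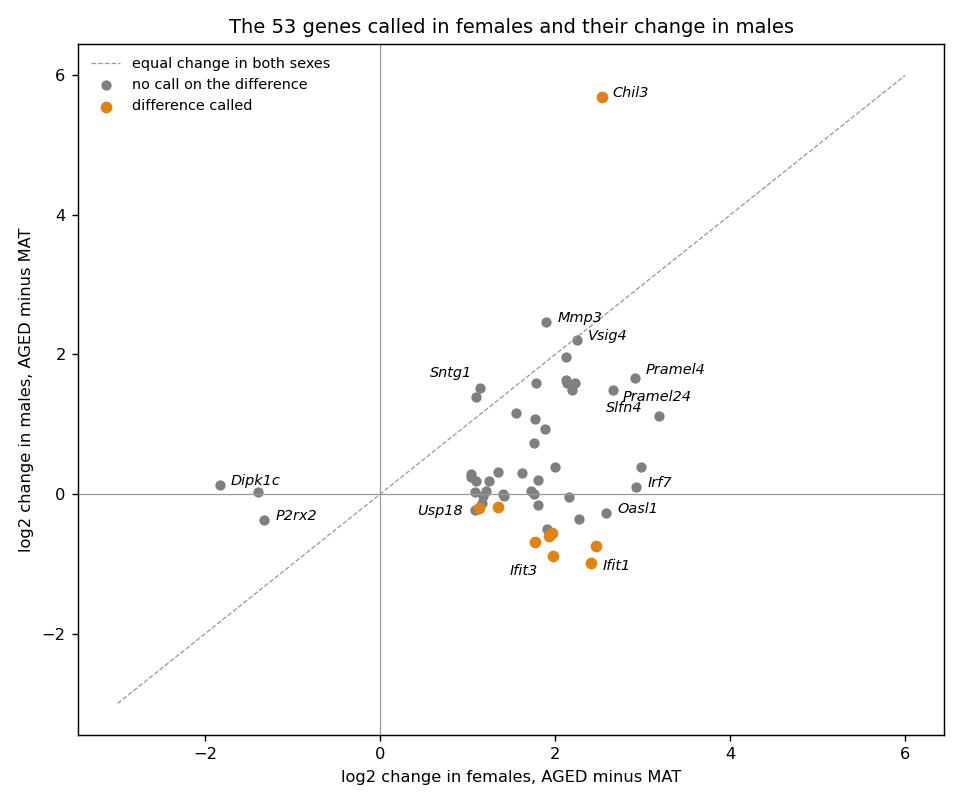
Log2 change in females (horizontal) against that in males (vertical), both AGED minus MAT, for the 53 genes called in females; each point is a gene, orange points have a called difference, and the dashed line marks equal changes. Chil3 lies above the line with 5.68 in males, and Ifit1 and Ifit3 lie below 0 in males.

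The genes with the smallest p for the difference included 5 with female changes within 0.2 of 0. Klhl18, an adaptor of ubiquitin ligases, had a change of 0.07 in females and −1.55 in males (difference 1.62, adjusted p = 0.00201). The receptor kinase Ephb1 had 0.12 in females and −3.06 in males (difference 3.18, adjusted p = 0.00582). The other 3 were Tmsb15l, Tmem29 and Zmat3, while female changes were 0.44 for the peptidase Nln, with −0.32 on its other probe, and −0.55 for Coro6. Ifih1 had 0.84 in females and −0.52 in males (difference 1.36, adjusted p = 0.0237).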

How the data were processed

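The authors deposited raw scanner files, whose processed signal is an intensity after background subtraction, and a table of log2 values. The raw files of 16 arrays, 4 of each age and sex, were read with pandas 2.3.3, and 55681 probes per array were put on the log2 scale and scaled to the array's upper quartile. Control spots were left out, as were spots that the software marked as non-uniform or as outliers of their replicates. The authors' log2 table was the same scaled signal centred per probe, with a largest median difference of 0.0135. Where several kept probes of a gene remained, the one with the highest mean over the female arrays stood for the gene. Genes were tested with limma 3.58.1 in R 4.3.3. The model held the 4 groups of both sexes, which left 12 residual degrees of freedom, and the Benjamini-Hochberg adjustment ran over all genes tested. Exact permutation tests were used for single further probes. The deposited label gives version 9.1 of the scanner software and the file header gives 10.7.3.1.

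Named were all called genes, with 4 of those that have no symbol; the 10 uncalled genes with the smallest p on each side that were bright on all 8 arrays; the called and the 3 brightest members of each list; the 10 genes with the smallest p for the difference between the sexes; and 18 fixed genes. Not every gene that the rule names is printed. This rule and the alternatives were set in advance, but the rule was not blind to these data. The 40 lists were chosen with earlier results of these data known, and some of the fixed genes come from the study's own list. Alternatives were other scalings and background corrections, filters, ways to treat several probes, other models of spread, the methods' t-test, the replicate number as a block, and fits that each lacked 1 array. The steps were tested on simulated data. Promoter windows came from RefSeq on GRCm38.p6. Features other than expression probes were not analysed.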

Additional observations from a re-analysis of the deposited data

Results flagged for a closer look

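An array was set apart where its gap to the nearest array of its group, divided by the whole range of the group, was above Dixon's 95% limit for 4 arrays. Chance sets apart about 1 in 20 groups, and here it was 1 of 8 groups for measures of whole arrays (12.5%), 11 of 156 for genes (7.05%) and 7 of 80 for summed lists (8.75%). What lay behind any of them was not tested. The genes counted leave out those named only as the brightest members of a list, some of which the rule would also set apart. Among those is Gbp2, with MAT array 4 at 3.0 and the other MAT arrays between 3.94 and 3.98. Among measures of whole arrays, MAT array 3 was low for the median signal (0.891). MAT array 3 was also high for Stat2 (0.889), Xaf1 (0.868), Bst2 (0.865) and AK019325 (0.865), and low for Gapdh (0.858). AGED array 4 was high for chr1:85304494-85305390 (0.858) and low for Chrm1 (0.876). Further single arrays were AGED array 1, low for Phf11a (0.855), AGED array 3, high for P2rx2 (0.858), MAT array 4, low for Sntg1 (0.86), and MAT array 2, high for Ppp1r14c (0.883).

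Of the summed lists, MAT array 1 was high for adipocyte genes (0.938), and MAT array 3 was high for endothelium (0.911) and for the sensors of nucleic acid (0.909). AGED array 4 was high for acute phase genes (0.909), AGED array 2 for alternative activation (0.903), AGED array 1 for senescence (0.869) and AGED array 3 for immediate early genes (0.843).

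The age change differed between females and males, tested with limma, for 57 genes. Female minus male, the difference was 3.39 for Ifit1, 2.998 for Ifit3b, 2.87 for Ifit3, 2.53 for Apol9a, 2.52 for Oasl2, 2.46 for Xaf1, 1.53 for Irf9, 1.36 for Ifih1 and 1.32 for Usp18. It was 3.18 for Ephb1, 1.62 for Klhl18, 1.62 for Tmsb15l, 1.575 for Nln, 1.39 for Tmem29 and 1.10 for Zmat3, and it was −3.15 for Chil3 and −1.23 for Coro6. Sex and slide cannot be told apart in these differences.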

How the results depend on the processing

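All 50 higher genes kept a change above 0 in every alternative that tested them, while the counts did not stay. For the fits that lacked an array this was fixed in advance, because the groups of these genes did not overlap. Beside the reported 50 higher, 3 lower and 57 differing genes, the counts that moved by over 1.5 times were as follows, and the cause was not tested. Without a filter on dim probes there were 24 higher, 1 lower and 7 differing genes. The 8 female arrays alone gave 91 higher and 14 lower, and array weights 153 higher, 38 lower and 290 differing. The methods' t-test gave 252 higher and 101 lower at an unadjusted p and 1 higher and 0 lower after adjustment, and limma at an unadjusted p gave 296 higher, 150 lower and 2572 differing. Lower genes alone moved to 5 with median scaling, to 1 with probes well above background on all 8 arrays and to 8 with no fold limit. The normexp correction gave 1 lower and 489 differing genes. It also took the unprocessed median spot signal in place of the processed signal and added an offset of 50. Quantile normalization gave 34 differing genes and the mean of the kept probes 27.

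With 1 array left out, the higher genes ranged from 2 to 107, the lower from 0 to 14 and the differing from 6 to 275. With the replicate number as a replicate block within each sex, 0 genes were higher, 0 lower and 0 differing. The replicate number is also the position across the slide. Deviations of AGED and MAT arrays with the same number correlated at −0.0886, 0.0666, −0.186 and −0.174 in females. Those of arrays with different numbers correlated between −0.198 and 0.16. So few values cannot tell pairing from none, and the part of slide position was not tested.

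Of 6974 values of named genes under alternatives, 6372 kept their direction and side of the threshold, 390 lost and 96 gained a call, and 116 values of 49 genes reversed in sign. Counting every change of sign as reversed was decided after results had been seen, which raised the number of reversed values and changed no value or call. Of the reversed values 1 was of a called gene, Dipk1c, 115 were of genes that were not called, and the cause was not tested. A floor on low signals gave Dipk1c 0.13. Normexp gave Tmsb15l 0.0012, Ifnar2 0.025, Pramel12 −0.038, Mdm2 −0.064, Timp2 −0.044 and Tnni2 0.065. Quantile normalization gave Adrb1 0.010, Csf3r −0.0030, Lyz1 −0.030, Mdm2 −0.012, Timp2 −0.037, Sparc −0.026, Ptprb −0.032, Cry2 −0.051, Fosl2 −0.057, Gpx1 −0.085 and Hoxa11 −0.019. The mean of kept probes gave Adrb1 0.25, Xist 0.16, Csf1r 0.040, Itgam 0.22, Cxcl12 0.048, Ptprb −0.012, Fosl2 −0.072 and Hspa8 0.097. Array weights gave Adrb1 0.019, Gbp2 −0.0093, Lyz1 −0.023, Sparc −0.0084, Vwf 0.0074, Gpx1 −0.018 and Tnni2 0.071. Median scaling gave Timp2 −0.0063, Cry2 −0.0055, Fosl2 −0.017 and Gpx1 −0.016. The authors' table gave Fosl2 −9.3e−05. Over the fits that lacked 1 array the range was Ephb1 −0.056 to 0.28, Chrm2 −0.40 to 0.22, Adrb1 −0.14 to 0.23, Adrb3 −0.45 to 0.059, Gapdh −0.18 to 0.049, Ifnar2 −0.041 to 0.040, Gbp2 −0.13 to 0.20, Pramel12 −0.036 to 0.11, H2-Ab1 −0.37 to 0.037, H2-Eb1 −0.28 to 0.040 and Csf1r −0.17 to 0.069. For further genes it was Cd79b −0.63 to 0.56, Nkg7 −0.38 to 0.15, Lck −0.39 to 0.083, Csf1 −0.067 to 0.20, Lyz1 −0.19 to 0.19, Slpi −0.81 to 0.44, Mdm2 −0.029 to 0.077, Timp2 −0.053 to 0.079, Dcn −0.22 to 0.16, Sparc −0.083 to 0.22 and Col1a2 −0.20 to 0.10. It also crossed 0 for Tagln −0.027 to 0.31, Acta2 −0.17 to 0.10, Trpv4 −0.013 to 0.22, Pmp22 −0.21 to 0.0033, Fabp4 −0.16 to 0.23, Dgat2 −0.29 to 0.033, Vwf −0.052 to 0.036, Ptprb −0.037 to 0.079, Tef −0.055 to 0.28, Cry2 −0.15 to 0.15 and Fosl2 −0.090 to 0.093. The remaining ranges were Hspb1 −0.027 to 0.20, Hspa8 −0.20 to 0.099, Sod1 −0.17 to 0.019, Gpx1 −0.053 to 0.050, Cox8a −0.061 to 0.054, Cox4i1 −0.12 to 0.0016, Hoxa11 −0.035 to 0.081, Acta1 −0.17 to 0.26, Myh2 −0.12 to 0.85 and Tnni2 −0.10 to 0.20.

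Signal over background limits the dim genes: at most 1 MAT array had Pramel24, Pramel4 or Slfn4 well above background, and 0 AGED arrays had Dipk1c so. Age shares the slide row and sex the slide, and 4 arrays per group leave calls near the threshold to single arrays.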
